A study of Mus musculus with 8 samples.

Results

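The genes of the mitochondrial respiratory chain and the ATP synthase were described in lymph node CD8 T cells of CD103Tg and C57BL/6 (B6) mice. Members were chosen by symbol: every listed gene whose symbol starts with mt-, Nduf, Cox4 to Cox8, Uqcr or Atp5, together with Sdha, Sdhb, Sdhc, Sdhd, Cyc1 and Cycs, with -ps symbols left out. This gave 106 of the 13245 genes listed. Of these, 18 are encoded by mitochondrial DNA (13 messenger, 2 ribosomal RNA and 3 transfer RNA genes) and 88 by the nucleus. The nuclear members comprised 77 subunits (37 of complex I, 4 of complex II, 9 of complex III, 11 of complex IV and 16 of complex V), 8 complex I assembly factors, cytochrome c, Cox7a2l and Atp5s. The 77, and the 37 of complex I, include Ndufb4c, which is annotated as a processed pseudogene.

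The study sorted memory-phenotype Ly6C+CXCR3+ CD8 T cells out of lymph nodes and measured their RNA in 8 bulk RNA-seq libraries. The CD103Tg group held 4 libraries from mice that overexpress CD103 (Itgae, an integrin alpha chain), and the B6 group held 4 libraries from wild-type C57BL/6 mice; no allele or treatment is named that both groups share. The promoter of the transgene, the strain background of the CD103Tg mice, their age and whether each library came from a separate mouse are not given in the sources used here, so the p-values speak only to the spread among the 8 libraries, which may be technical. The comparison asks which transcripts change in this population when CD103 is overexpressed.

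The respiratory chain passes electrons from NADH and succinate through complexes I, II, III and IV to oxygen, and complex V, the ATP synthase, uses the resulting proton gradient to make ATP. Complexes I, III, IV and V are built from subunits encoded by both genomes, while complex II is entirely nuclear. Mitochondrial DNA is transcribed as long polycistronic RNAs that are cut into single messengers, whereas each nuclear subunit gene has a promoter of its own, many of them bound by NRF1, ETS-family (GABP) and YY1 factors. Memory CD8 T cells are known for oxidative metabolism, and dividing T cells draw heavily on glycolysis.

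Depth was 50187279 to 56371476 estimated reads per library, so that 1 read was worth 0.0171 to 0.0203 CPM, the deposited normalised unit. Itgae was at 3469, 4692, 4169 and 5509 CPM in CD103Tg and at 41.4, 51.4, 37.5 and 173.9 CPM in B6, as the labels have it. Cd247, the CD3 zeta chain gene, also differed, at 8711 ± 1001 CPM in CD103Tg against 345.3 ± 89.2 CPM in B6 (SD, n = 4 each), so differences between the groups cannot be assigned to CD103 alone. All 8 CD8 T cell markers were listed, with summed levels of 8862 to 9838 CPM in CD103Tg and 9028 to 10453 CPM in B6. The gene ID versions matched GENCODE M21, and coordinates are on GRCm38.

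Mitochondrially encoded messengers were lower in CD103Tg, while nuclear subunit genes were at similar or slightly higher levels. Of 18 mt- genes, 2 were under the filter on low values, and mt-Nd4l passed it only through its B6 values and is described apart. Of the 15 others 14 fell and 0 rose (limma-trend on log2(CPM + 1), Benjamini-Hochberg adjusted p under 0.05 over 11503 genes). Across all tested genes 31.2% passed, 17.4% higher and 13.8% lower in CD103Tg, with a median log2 fold change of -0.0052. That is 2000 higher and 1592 lower, a split that turned to 1671 higher and 2014 lower when libraries were scaled to equal totals without the mt- rows. The median over the 15 mt- genes was -0.77 and all 15 were below zero. All 4 CD103Tg libraries lay below all 4 B6 libraries for 14 of the 15, against 13.6% of all tested genes. In bulk RNA, less transcript per cell and fewer cells carrying it cannot be told apart.

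**Figure D1:**
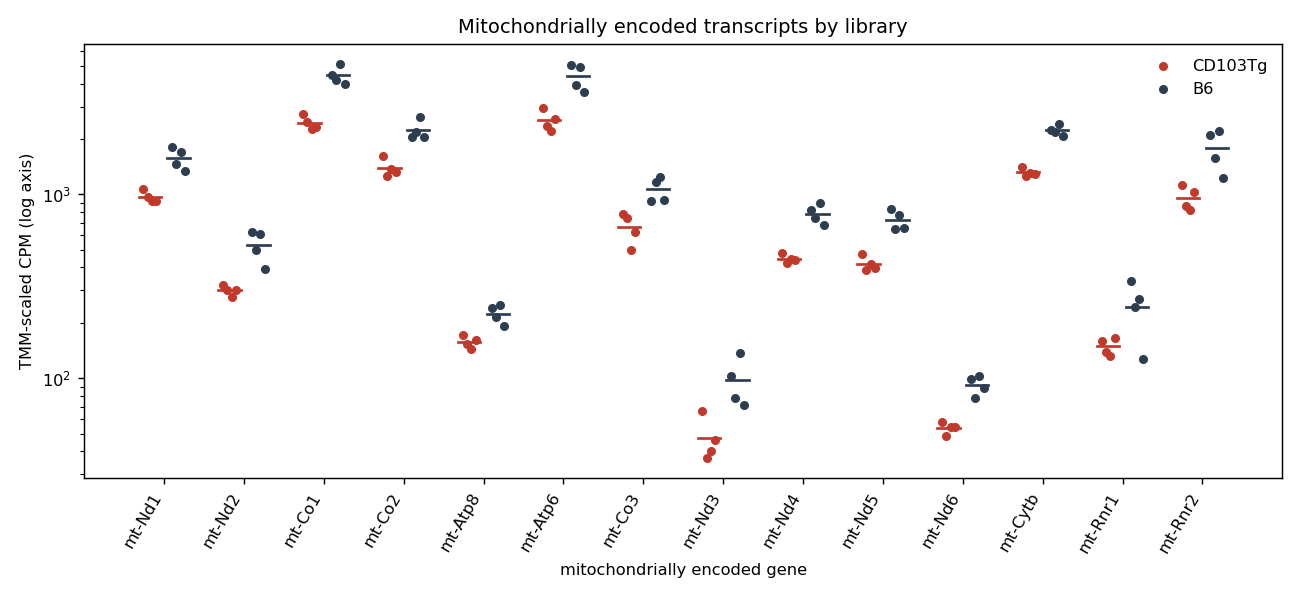
TMM-scaled CPM on a log axis for the mt- messenger and ribosomal RNA genes, one point per library with a line at the group mean, CD103Tg (red) left of B6 (dark); mt-Nd4l, listed at 0 in 3 libraries, is left out. The mt-Rnr1 groups overlap, and for every other gene drawn the CD103Tg points lie below the B6 points.

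The 7 mitochondrially encoded subunits of complex I form the proton-pumping membrane arm, and 6 of them fell, with mt-Nd4l taken apart. mt-Nd1 (chromosome M, 2751 to 3707, plus strand) was at 1065, 971, 920 and 922 CPM in CD103Tg and at 1815, 1454, 1689 and 1343 CPM in B6, a log2 fold change of -0.69 ± 0.09 (SE; adjusted p = 0.00024, limma). mt-Nd4 was at 477.6, 423.8, 443.4 and 437.7 CPM in CD103Tg against 822, 742, 895 and 682 CPM in B6 (-0.81 ± 0.08; adjusted p = 2.7e-05, limma). Both genes had all CD103Tg libraries below all B6 libraries, and CD103Tg replicate 1 was the highest of its group for both. mt-Nd2 fell by 0.80 ± 0.13, mt-Nd5 by 0.79 ± 0.09 and mt-Nd3 by 1.01 ± 0.21 on the log2 scale, each without overlap. mt-Nd6, the single messenger on the other strand of mitochondrial DNA (13552 to 14070, minus strand), was at 57.6, 48.3, 54.1 and 54.1 CPM in CD103Tg against 98.7, 78.2, 103.2 and 88.3 CPM in B6. Its log2 fold change of -0.77 ± 0.09 lay within the range of the 11 plus-strand messengers other than mt-Nd4l, -1.01 to -0.50.

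The library kit does not mark strand and the messengers abut or overlap, so part of the reads of some neighbours cannot be assigned to 1 gene. The ends of mt-Nd5 and mt-Nd6 are shown because they overlap on opposite strands by 14 bases (chrM:13552-13565), in capitals; mt-Nd5 is read on the plus strand (chrM:13492-13565) and mt-Nd6 on the minus strand (chrM:13552-13625), both from GENCODE M21.
mt-Nd5 end: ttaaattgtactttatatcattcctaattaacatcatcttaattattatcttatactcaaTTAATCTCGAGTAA
mt-Nd6 end: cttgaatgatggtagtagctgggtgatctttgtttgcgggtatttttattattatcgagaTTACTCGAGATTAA
The capitals of one line are the reverse complement of those of the other, and reads from these bases carry no sign of which gene they came from. The remaining bases of both genes lie outside each other, but reads there carry no strand either. The mt-Nd6 value is thus not a separate measure of the minus strand.

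mt-Nd4l, the smallest complex I messenger at 297 bases, was listed at 0.888 CPM in CD103Tg replicate 1 and at 0 in the other 3 CD103Tg libraries, against 1.37, 5.03, 3.09 and 0.724 CPM in B6. It passed the test (adjusted p = 0.0111, limma) with overlapping groups, entered the test only through its B6 values and was under the filter without B6 replicate 2; its fitted log2 fold change of -1.43 depends on the pseudocount and is no measure of size. Nearly all of its reads were listed under Gm10222, an unprocessed pseudogene on chromosome 1. The 2 sequences are shown because they carry the same letters over 294 bases; the capitals in mt-Nd4l (chrM:9877-10173, plus strand) mark its 7-base overlap with mt-Nd4, and Gm10222 (chr1:24612407-24612700, minus strand) is in lower case throughout.
mt-Nd4l: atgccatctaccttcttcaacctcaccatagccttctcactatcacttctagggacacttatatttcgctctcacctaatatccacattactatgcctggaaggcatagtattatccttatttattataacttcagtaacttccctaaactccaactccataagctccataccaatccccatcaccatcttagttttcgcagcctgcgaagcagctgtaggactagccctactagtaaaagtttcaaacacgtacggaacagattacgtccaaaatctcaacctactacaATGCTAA
Gm10222: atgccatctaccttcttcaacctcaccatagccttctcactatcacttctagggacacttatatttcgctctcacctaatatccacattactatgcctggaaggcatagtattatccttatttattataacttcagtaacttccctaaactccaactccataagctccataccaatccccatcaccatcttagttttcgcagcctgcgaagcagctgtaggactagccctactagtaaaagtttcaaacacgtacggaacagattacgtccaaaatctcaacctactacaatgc
Gm10222 was at 32.4, 28.7, 30.1 and 31.3 CPM in CD103Tg against 53.6, 47.1, 65.0 and 44.0 CPM in B6. The sum of the pair was 30.8 ± 1.91 CPM in CD103Tg and 55.0 ± 9.75 CPM in B6 (SD, n = 4 each), a log2 ratio of -0.83 that is close to that of the other complex I messengers. CD103Tg libraries were all below B6 libraries for this sum.

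Among the listed genes, the only ones searched, such copies were found for 6 of the 13 messengers, in 1 block of chromosome 1 (24612407 to 24616197, minus strand). RSEM, which the submitters' processing notes name, divides reads from identical bases by estimate. Gm28661 (copy of mt-Co2), Gm10925 (mt-Atp6), Gm28437 (mt-Co3) and Gm10222 (mt-Nd4l) held 0 differences from the mitochondrial gene over their length. Gm28438 differed from mt-Nd3 at T3C, and Gm29216 from the end of mt-Co1 at T1056A, C1057T, A1059G, A1060G, C1062A and A1066T, counted from 1 at the first base of the mitochondrial gene, whose base is given first. The copy held most of the reads of the mt-Co3 pair, 78.7% to 84.3% of its CPM in CD103Tg libraries and 77.6% to 85.8% in B6 libraries. For mt-Atp6 the copy's share was 5.99% to 8.41% in CD103Tg and 4.32% to 7.72% in B6.

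Adding each copy to its gene left each of the other 5 pairs lower in CD103Tg as well. The log2 ratio of the sums was -0.73 for mt-Co1 with Gm29216, -0.65 for mt-Co2 with Gm28661, -0.78 for mt-Atp6 with Gm10925, -0.71 for mt-Co3 with Gm28437 and -1.09 for mt-Nd3 with Gm28438. Over all 13 messengers the sum with copies was 14926 ± 1440 CPM in CD103Tg and 24834 ± 3087 CPM in B6, and the groups did not overlap. mt-Co3 without its copy stood at 844 CPM per kb in CD103Tg and 1358 CPM per kb in B6, a level that does not include the copy's reads.

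**Figure D2:**
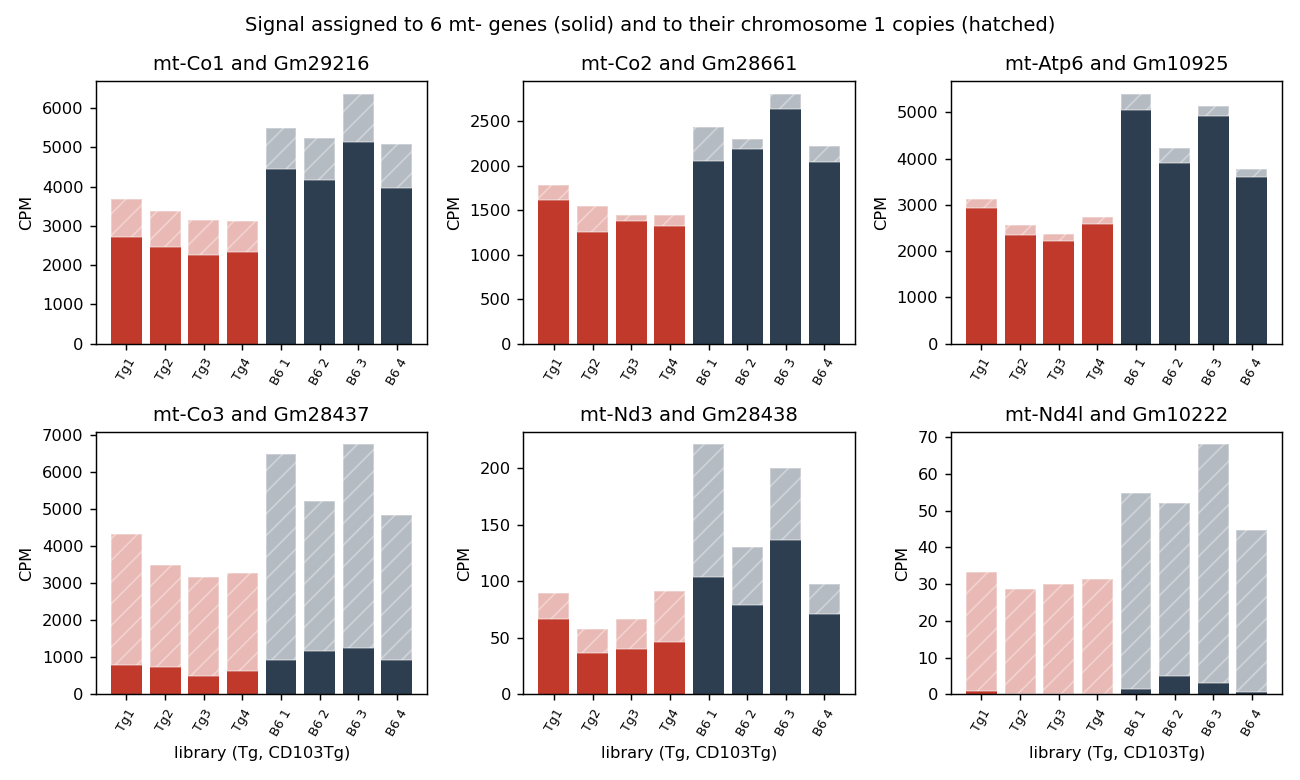
CPM of 6 mt- genes (solid) with the CPM of the chromosome 1 copy of each stacked on top (hatched), one bar per library, CD103Tg (red) left of B6 (dark). For all 6 pairs each CD103Tg bar is lower than each B6 bar, and the hatched part is the larger one in all libraries for mt-Co3 and mt-Nd4l and in B6 replicate 1 for mt-Nd3.

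Complex III has 1 mitochondrially encoded subunit, mt-Cytb, which holds the hemes b. It was at 1402, 1260, 1311 and 1281 CPM in CD103Tg and at 2225, 2186, 2396 and 2087 CPM in B6. The spread within both groups was narrow, the groups stood well apart, and the log2 fold change was -0.76 ± 0.07 (adjusted p = 9.97e-06, limma), the smallest p among the members.

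Complex IV takes its 3 catalytic-core subunits from mitochondrial DNA, and all 3 fell. mt-Co1, which carries the oxygen-binding heme and copper centre, was at 2723, 2476, 2266 and 2323 CPM in CD103Tg against 4450, 4160, 5128 and 3975 CPM in B6 (-0.85 ± 0.09; adjusted p = 5.52e-05, limma). mt-Co2, which receives electrons from cytochrome c, was at 1620, 1252, 1375 and 1327 CPM in CD103Tg against 2052, 2190, 2643 and 2046 CPM in B6 (-0.68 ± 0.10; adjusted p = 0.000436, limma). mt-Co3 fell by 0.69 ± 0.14 on the log2 scale and was the least even of the 3, at 779.6, 746.7, 496.3 and 624.6 CPM in CD103Tg against 921, 1166, 1236 and 936 CPM in B6. None of the 3 had overlapping groups.

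Complex V takes mt-Atp6, part of the proton channel, and mt-Atp8, a small membrane subunit, from mitochondrial DNA. Without the chromosome 1 copies, mt-Atp6 had the highest level per length of the messengers, with 3704 CPM per kb in CD103Tg and 6420 CPM per kb in B6. With the copies added this order changed: the mt-Co3 pair stood at 4538 CPM per kb in CD103Tg and 7428 CPM per kb in B6, and the mt-Atp6 pair at 3969 CPM per kb in CD103Tg and 6818 CPM per kb in B6. mt-Atp6 fell by 0.79 ± 0.13 on the log2 scale (adjusted p = 0.000723, limma). mt-Atp8 was at 172.1, 154.0, 144.7 and 160.8 CPM in CD103Tg against 240.7, 214.8, 250.9 and 193.1 CPM in B6 (-0.50 ± 0.08; adjusted p = 0.000936, limma), the smallest log2 difference of the 13 messengers. Its share of the messenger sum was 1.47 ± 0.0491% in CD103Tg and 1.22 ± 0.0238% in B6 (SD, n = 4 each), the only share of the 13 for which the groups did not overlap; the other shares, which are not independent of each other, overlapped. The end of mt-Atp8 (chrM:7867-7969) and the start of mt-Atp6 (chrM:7927-8029), both on the plus strand and from GENCODE M21, are shown because the 2 reading frames share 43 bases, in capitals.
mt-Atp8 end: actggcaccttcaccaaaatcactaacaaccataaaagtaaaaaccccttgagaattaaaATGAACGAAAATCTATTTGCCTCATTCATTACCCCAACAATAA
mt-Atp6 start: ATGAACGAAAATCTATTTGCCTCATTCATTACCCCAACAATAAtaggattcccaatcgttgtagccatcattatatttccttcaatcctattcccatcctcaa
The shared bases are 43 of the 204 bases of mt-Atp8, and both genes sit on the same messenger RNA.

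The 2 ribosomal RNA genes lie nearest the start of the polycistronic RNA. mt-Rnr2, the large ribosomal RNA, was at 1124, 863, 820 and 1035 CPM in CD103Tg against 2103, 1581, 2197 and 1227 CPM in B6 (-0.86 ± 0.17; adjusted p = 0.00296, limma). mt-Rnr1, the small ribosomal RNA, was at 160.0, 139.2, 132.8 and 164.9 CPM in CD103Tg against 339.0, 245.2, 270.2 and 126.9 CPM in B6, with a log2 difference of -0.63 ± 0.23 that did not pass (adjusted p = 0.0595, limma). B6 replicate 4 lay below all 4 CD103Tg libraries while the other 3 B6 libraries lay above them, and without it mt-Rnr1 passed (-0.92; adjusted p = 0.000163). Among transfer RNA genes, mt-Ts1 fell, with 9.20 ± 1.04 CPM in CD103Tg and 13.5 ± 2.66 CPM in B6 (SD, n = 4 each; -0.49 ± 0.13), and 3 of its 69 bases overlap mt-Co1 on the opposite strand. Without strand marking, reads over its other bases cannot be assigned to its own strand either. mt-Te and mt-Tq were under the mean of 1 CPM required for the test, mt-Te at 0.389 ± 0.0899 CPM in CD103Tg and 0.723 ± 0.208 CPM in B6, mt-Tq at 0.493 ± 0.212 CPM in CD103Tg and 0.289 ± 0.206 CPM in B6.

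The nuclear members moved less and in the other direction. Of 88, all tested, 24 rose, 1 fell and 63 did not pass, against 17.4% of all tested genes higher and 13.8% lower. An unadjusted limma p under 0.05 was found for 39 of the 88, a share close to that over all tested genes (4748 of 11503). The median log2 fold change was 0.13, and 74 of 88 were above zero. In 20 members all CD103Tg libraries were above all B6 libraries, against 17.4% of all tested genes, and in 1 they were all below. All 24 that rose were structural subunits, with log2 fold changes of 0.17 to 0.41. The count of rises was 14 without B6 replicate 2, 38 without B6 replicate 3, 14 without B6 replicate 4, 13 without CD103Tg replicate 1 and 15 without CD103Tg replicate 3, and 13 of the 25 calls held in all 20 alternative settings. Cox5b, Ndufc1 and Atp5h lost their calls without any one of the 7 libraries other than B6 replicate 3. Atp5g1 and Uqcr11 lost theirs without B6 replicate 1, 2 or 4 or CD103Tg replicate 1, 2 or 3, and Atp5k without B6 replicate 1, 2 or 4 or CD103Tg replicate 1, 3 or 4. Ndufs8 lost it without B6 replicate 2 or 4 or any CD103Tg library, Ndufa7 without B6 replicate 2, 3 or 4 or CD103Tg replicate 1, 3 or 4, and Atp5d without B6 replicate 2 or 4 or CD103Tg replicate 1, 2 or 3. Ndufa4 lost it without B6 replicate 2 or 4 or CD103Tg replicate 1 or 2, and Atp5o without CD103Tg replicate 1. In the 12 settings that kept all libraries, Cox5b lost its call in 9, Ndufc1 in 8, Ndufs8 in 5, Ndufa7 in 3, Atp5h and Atp5g1 in 2 each and Uqcr11 and Atp5k in 1 each; the replicate block was among those of Cox5b, Ndufc1 and Ndufs8.

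**Figure D3:**
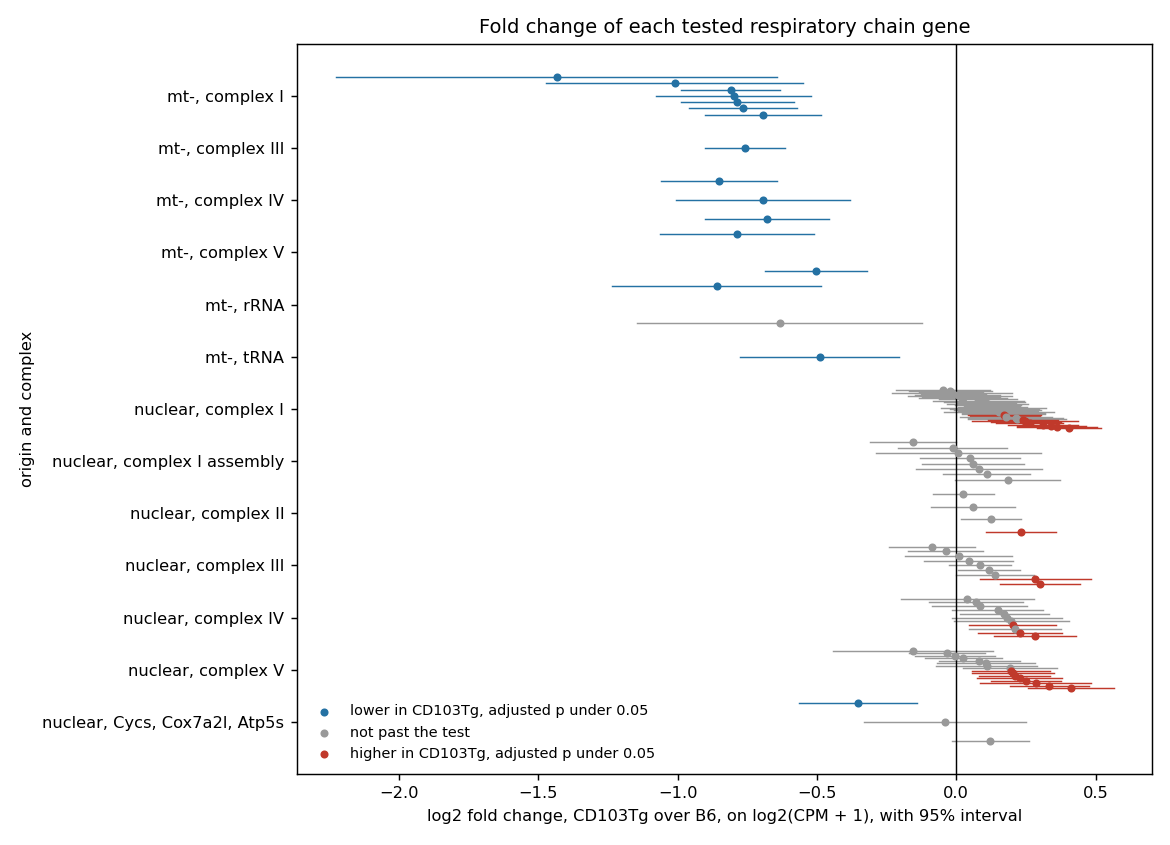
Log2 fold change of each tested member with its 95% interval on the log2(CPM + 1) scale, CD103Tg over B6, in rows by genome of origin and complex, coloured by call. The mt- genes other than mt-Nd4l (fitted at -1.43) lie between -1.01 and -0.49 and the nuclear members between -0.35 and 0.41.

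Of 37 nuclear complex I subunits, which form the matrix arm and the shell around the membrane arm, 10 rose and none fell, with 17 rises without B6 replicate 3. Over all tested genes 17.4% were higher and 13.8% lower in CD103Tg, and the counts for parts of the complex stand beside the same shares. Among the 7 core subunits that carry flavin or iron-sulfur clusters or line their path, Ndufs8 rose (0.17 ± 0.06; adjusted p = 0.0474, limma). Of 11 Ndufb subunits, accessory proteins of the membrane arm, 4 rose: Ndufb7 (0.34 ± 0.06), Ndufb8 (0.31 ± 0.06), Ndufb11 (0.25 ± 0.06) and Ndufb10 (0.24 ± 0.06). Of the other 19 accessory subunits 5 rose, led by Ndufa12 and Ndufa13. Ndufa12 was at 82.8, 83.3, 84.6 and 80.4 CPM in CD103Tg against 58.8, 63.5, 65.1 and 61.9 CPM in B6 (0.41 ± 0.05; adjusted p = 0.000144, limma). Its groups were far apart and both narrow. Ndufa13, also known as GRIM-19, was at 156.6, 147.2, 143.6 and 142.6 CPM in CD103Tg against 111.3, 114.8, 128.5 and 104.6 CPM in B6 (0.36 ± 0.07), and 375 of its bases are shared with Tssk6, which stood at 2.43 CPM over all libraries. Ndufa8 rose by 0.26 ± 0.05, Ndufc1 by 0.25 ± 0.09 and Ndufa7 by 0.18 ± 0.06 on the log2 scale. Ndufc1 passed narrowly (adjusted p = 0.0495, limma), and its groups overlapped. Ndufa1, the most abundant nuclear complex I messenger per length, was at 298 CPM per kb in CD103Tg and 272 CPM per kb in B6 and did not pass (0.13 ± 0.09; adjusted p = 0.264, limma). None of the 8 Ndufaf assembly factors passed, with log2 differences of -0.15 to 0.18.

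Complex II, which has no mitochondrially encoded subunit, had 1 of 4 subunits higher, against 17.4% of all tested genes. Sdhd, a membrane anchor, was at 154.2, 151.9, 148.7 and 144.8 CPM in CD103Tg against 137.0, 125.2, 131.4 and 116.6 CPM in B6 (0.23 ± 0.06; adjusted p = 0.00952, limma), without overlap. Sdha, the flavoprotein and the most abundant of the 4 per length at 225 CPM per kb in CD103Tg and 221 CPM per kb in B6, differed by 0.03 ± 0.05 and did not pass. The 95% interval of the Sdha log2 difference ran from -0.08 to 0.13.

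Of 9 nuclear complex III subunits 2 rose, both small accessory subunits, against 17.4% of all tested genes. The count was 1 without any one of B6 replicates 1, 2 and 4 or CD103Tg replicates 1 to 3. Uqcr10 was at 81.1, 84.5, 79.0 and 81.7 CPM in CD103Tg against 66.7, 62.7, 74.3 and 61.2 CPM in B6 (0.30 ± 0.07; adjusted p = 0.00511, limma), and no library crossed over. Uqcr11 (0.28 ± 0.09; adjusted p = 0.0342, limma) had overlapping groups. Uqcrb, the most abundant per length, was at 271 CPM per kb in CD103Tg and 263 CPM per kb in B6 and did not pass. Cycs, encoding cytochrome c, which ferries electrons between complexes III and IV, was at 139 ± 7.47 CPM in CD103Tg and 127.9 ± 9.20 CPM in B6 (SD, n = 4 each; 0.12 ± 0.06, not called). Gm10053, nearly identical to Cycs over 946 bases, held about as many reads, and the pair summed to 281 ± 11.8 CPM in CD103Tg and 251 ± 19.2 CPM in B6.

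Of 11 nuclear complex IV subunits, which surround the catalytic core, all 11 were above zero and 3 rose, against 17.4% of all tested genes. The count was 8 without B6 replicate 3 and 1 without B6 replicate 2, B6 replicate 4 or CD103Tg replicate 1. Cox5a was at 153.7, 139.6, 138.5 and 143.4 CPM in CD103Tg against 118.4, 114.7, 132.6 and 107.4 CPM in B6 (0.28 ± 0.07; adjusted p = 0.00818, limma), without overlap. Ndufa4, now counted as a complex IV subunit, rose by 0.23 ± 0.07 (adjusted p = 0.0253, limma). Cox5b passed narrowly (0.20 ± 0.07; adjusted p = 0.0491, limma), and its groups overlapped through B6 replicate 3. Cox6a1, the most abundant per length, was at 387 CPM per kb in CD103Tg and 366 CPM per kb in B6 and did not pass.

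Of 16 nuclear complex V subunits 8 rose and none fell, against 17.4% of all tested genes higher and 13.8% lower. The count was 5 without B6 replicate 1 or CD103Tg replicate 2, 4 without B6 replicate 2, B6 replicate 4 or CD103Tg replicate 3, and 3 without CD103Tg replicate 1. Atp5b, the catalytic beta subunit and the most abundant nuclear member per length, was at 800 CPM per kb in CD103Tg and 786 CPM per kb in B6 (0.03 ± 0.06; 95% interval -0.11 to 0.16), and did not pass. Of the 5 head and central stalk genes 2 rose: Atp5e, the epsilon subunit, at 90.6, 88.8, 88.0 and 92.7 CPM in CD103Tg against 66.8, 67.7, 76.7 and 59.8 CPM in B6 (0.41 ± 0.07; adjusted p = 0.00112, limma), and Atp5d, the delta subunit, at 0.23 ± 0.07. In the peripheral stalk, which holds the head still, 3 of 4 rose: Atp5j (0.25 ± 0.06), Atp5o (0.21 ± 0.06) and Atp5h (0.20 ± 0.07). Atp5g1 was called among the 3 c-ring genes, whose products are identical as mature proteins, with 0.20 ± 0.06, and Atp5j2 (0.33 ± 0.06) and Atp5k (0.29 ± 0.09) among the 4 other membrane subunits. Atp5d, Atp5g1, Atp5h and Atp5k had overlapping groups. Atp5s, a coupling factor, was at 6.33 ± 1.33 CPM in CD103Tg and 6.47 ± 0.597 CPM in B6.

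Cox7a2l, which joins complexes III and IV into supercomplexes and of which C57BL/6 mice are known to carry a short form, was the single nuclear member that fell. It was at 96.8, 83.0, 84.5 and 91.5 CPM in CD103Tg against 121.8, 104.4, 134.7 and 97.3 CPM in B6 (-0.35 ± 0.10; adjusted p = 0.0165, limma). The highest CD103Tg library lay just under the lowest B6 library, and the call was lost without CD103Tg replicate 2 (adjusted p = 0.0519).

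The mitochondrial and nuclear sums set the 2 genomes side by side. The 13 messengers summed to 12098, 10411, 9969 and 10455 CPM in CD103Tg against 19251, 17326, 20787 and 16064 CPM in B6, a log2 ratio of -0.77. The 77 nuclear subunits summed to 12906, 12150, 12066 and 11959 CPM in CD103Tg against 11695, 11068, 12351 and 10518 CPM in B6, a log2 ratio of 0.11 with overlapping groups. The messenger sum over the nuclear sum was thus 0.874 ± 0.0469 in CD103Tg and 1.61 ± 0.0716 in B6 (SD, n = 4 each); this ratio has no scaling between libraries in it, and no test was run on it. Its groups did not overlap, and relative to its mean it varied less within groups than the messenger sum did. With the chromosome 1 copies added, it was 1.21 ± 0.0744 in CD103Tg and 2.171 ± 0.127 in B6.

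**Figure D4:**
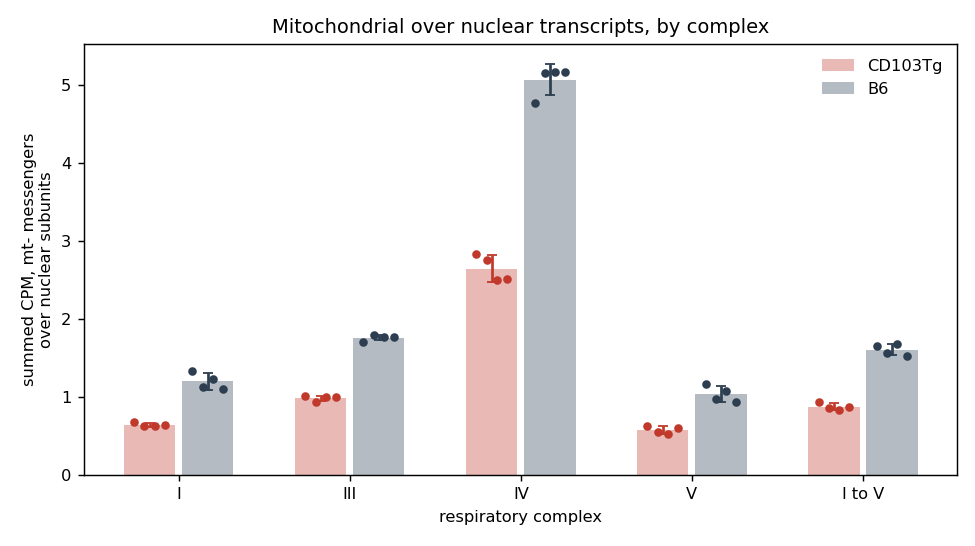
Summed CPM of mt- messengers over summed CPM of nuclear subunits for complexes I, III, IV and V and for complexes I to V together; bars are means, error bars SD (n = 4) and points libraries, CD103Tg left of B6. In each comparison every CD103Tg library lies below every B6 library.

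The lower ratio was present in each of the 4 complexes of mixed origin. It was 0.642 ± 0.0227 in CD103Tg and 1.20 ± 0.109 in B6 for complex I, and 0.981 ± 0.0321 in CD103Tg and 1.76 ± 0.0338 in B6 for complex III. For complex IV it was 2.64 ± 0.17 in CD103Tg and 5.07 ± 0.197 in B6, and for complex V it was 0.574 ± 0.052 in CD103Tg and 1.04 ± 0.107 in B6. Of all listed CPM, the messengers made up 1.06 ± 0.0831% in CD103Tg and 1.85 ± 0.166% in B6.

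Within a group, libraries ranked alike over many nuclear members. B6 replicate 3 was the highest B6 library for 63 of the 77 nuclear subunits and B6 replicate 4 the lowest for 62, and CD103Tg replicate 1 was the highest of its group for 57. Over all tested genes these shares were 24.0%, 32.7% and 27.4%. The median log2 distance of the nuclear subunits from their B6 mean was 0.22, 0.12, 0.12 and 0.12 in the CD103Tg libraries and 0.02, -0.05, 0.14 and -0.13 in the B6 libraries. B6 replicate 3 thus lay at the level of 3 of the CD103Tg libraries. The mt- messengers were also highest in CD103Tg replicate 1, for 13 of 13, and lowest in B6 replicate 4 for 10 of 13. The part of this library pattern in the nuclear rises was not tested.

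**Figure D5:**
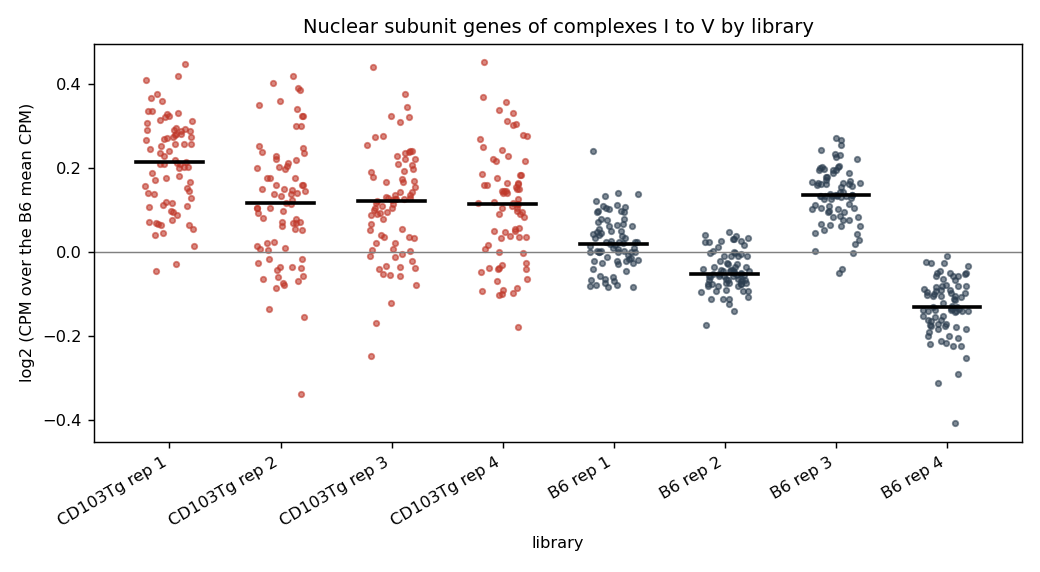
Log2 distance of each of the 77 nuclear subunits from its own B6 mean, one column of points per library with the median marked, CD103Tg libraries left of B6 libraries. The medians of CD103Tg replicates 2 to 4 lie at 0.12, beside 0.14 in B6 replicate 3.

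The nuclear members are short genes, and short genes rose more often over the whole table. The median transcript length was 861 bases for the 77 subunits and 2966 bases for all tested protein-coding genes. Of protein-coding genes of up to 1000 bases, 23.7% were higher and 8.01% lower in CD103Tg, and of those over 2000 bases 17.2% were higher and 15.4% lower. In the same ranges 17 of 45 and 1 of 8 nuclear subunits rose, with 6 of 24 in between. Lengths are those of the longest principal transcript, which need not be the form expressed. The 1 rise over 2000 bases was Atp5g1, placed there by a transcript of 4715 bases. The mt- messengers, which fell, are also short, with a median of 784 bases. The part of length in these counts was not tested.

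Promoters of nuclear members were searched for letters bound by factors of respiratory gene transcription, in RefSeq windows (GRCm38.p6) of 300 bases, 250 before to 50 after the start; 71 of 88 members matched an entry, with 76 windows. Both strands were searched for GCGCA and GCGC set apart by any 1 base (NRF1), CCGGAAG (ETS family), AAGATGG (YY1) and GGGCGG (GC box), none of which is contained in another. The NRF1 letters were in 26.3% of member windows and 4.603% of all 32851 windows, the ETS letters in 23.7% and 8.86%, the YY1 letters in 14.5% and 6.34%, and the GC box in 43.4% and 35.7%. Among the 24 members that rose, 5 had the NRF1, 8 the ETS and 4 the YY1 letters and 7 the GC box; among the 46 uncalled ones 14 had the NRF1, 10 the ETS and 7 the YY1 letters and 23 the GC box. The 250 bases before the start are shown for a member that rose with each kind of match and for Cox7a2l, with NRF1, ETS and YY1 letters in capitals: Ndufa8 (chr2:36049339-36049588, minus strand) holds NRF1 letters, Ndufb7 (chr8:83566508-83566757, plus strand) ETS letters, Atp5j (chr16:84834977-84835226, minus strand) YY1 and ETS letters, and Cox7a2l (chr17:83514334-83514583, minus strand) none of the 3.
Ndufa8: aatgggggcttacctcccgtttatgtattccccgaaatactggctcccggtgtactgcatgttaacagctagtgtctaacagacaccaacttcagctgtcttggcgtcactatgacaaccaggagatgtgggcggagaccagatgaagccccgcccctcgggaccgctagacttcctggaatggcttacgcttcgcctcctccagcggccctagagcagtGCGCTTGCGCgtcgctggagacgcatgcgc
Ndufb7: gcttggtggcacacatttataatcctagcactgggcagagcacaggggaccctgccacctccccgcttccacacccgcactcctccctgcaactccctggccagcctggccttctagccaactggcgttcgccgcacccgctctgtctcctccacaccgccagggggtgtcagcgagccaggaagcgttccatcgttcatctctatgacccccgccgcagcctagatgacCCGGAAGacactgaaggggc
Atp5j: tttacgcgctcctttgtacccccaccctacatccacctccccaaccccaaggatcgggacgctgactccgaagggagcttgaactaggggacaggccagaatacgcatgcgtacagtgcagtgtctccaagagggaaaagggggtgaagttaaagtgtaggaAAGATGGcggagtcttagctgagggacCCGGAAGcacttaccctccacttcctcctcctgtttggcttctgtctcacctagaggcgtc
Cox7a2l: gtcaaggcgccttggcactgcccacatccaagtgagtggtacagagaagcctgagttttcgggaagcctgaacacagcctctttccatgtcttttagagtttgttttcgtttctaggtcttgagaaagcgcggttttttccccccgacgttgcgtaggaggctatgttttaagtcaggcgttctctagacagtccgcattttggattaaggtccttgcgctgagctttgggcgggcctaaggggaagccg
A match in these windows is a description of letters, and windows without one were not searched further.

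The counts for other genes of mitochondrial upkeep stand beside 17.4% higher and 13.8% lower over all tested genes, and no test of the lists was run. Of 18 genes of mitochondrial DNA maintenance and transcription none passed (limma-trend), and the median log2 difference was -0.12. An unadjusted limma p under 0.05 was found for 5 of the 18, against 4748 of all 11503 tested genes. The count called lower was 1 with equal totals, 2 with array weights, 3 with quantile normalization and 5 with equal totals without the mt- rows. Polg2, a DNA polymerase gamma subunit, was at 7.67 ± 0.724 CPM in CD103Tg and 9.34 ± 0.62 CPM in B6, Tfb2m, a transcription initiation factor, at 29.5 ± 1.38 CPM in CD103Tg and 33.1 ± 1.65 CPM in B6, and Lonp1, a matrix protease, at 68.0 ± 1.75 CPM in CD103Tg and 74.0 ± 2.57 CPM in B6 (SD, n = 4 each). Polrmt, the mitochondrial RNA polymerase, named after its values were seen, differed by 0.04 ± 0.07 on the log2 scale. Of 20 genes of mitochondrial RNA processing and stability, with a median of -0.0086, 3 fell and 0 rose: Trmt10c, a subunit of mitochondrial RNase P (-0.30 ± 0.07), Fastkd2 (-0.22 ± 0.06) and Lrpprc, which stabilises mitochondrial messengers (-0.22 ± 0.06). Fastkd2 lost its call without B6 replicate 2 or CD103Tg replicate 2, and Lrpprc without CD103Tg replicate 1, and the count of falls was 5 with array weights and with equal totals without the mt- rows.

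Of 13 biogenesis regulators 3 rose and 2 fell, with a median of -0.08. Myc rose by 0.30 ± 0.07 and Esrra, the estrogen-related receptor alpha, by 0.28 ± 0.08, and Yy1 fell by 0.23 ± 0.08 on the log2 scale. The other rise was in Sirt3 and the other fall in Sirt1, both named after their values were seen; both lower calls of the list were lost with the replicate block and without B6 replicate 1, B6 replicate 3, CD103Tg replicate 2 or CD103Tg replicate 3. Of 24 genes of mitochondrial membranes, import and mass 4 rose and 2 fell, among them Vdac3, an outer-membrane channel (0.30 ± 0.05), Mfn2, a fusion protein (0.25 ± 0.05), and Tomm70a, an import receptor (-0.18 ± 0.05). Phb and Timm23 also rose and Hspa9 also fell, named after their values were seen, and Tomm70a lost its call without B6 replicate 1 or 2 or CD103Tg replicate 3. Of 9 mitophagy genes Fkbp8 rose (0.24 ± 0.05) and Bnip3l (-0.27 ± 0.06) and Sqstm1 (-0.28 ± 0.07) fell. Of 15 genes of coenzyme Q and other electron entry 2 rose, Ucp2, an inner-membrane carrier (0.30 ± 0.08), and Coq10a (0.26 ± 0.07; lost without B6 replicate 2 or CD103Tg replicate 1 or 3), while Gpd2 differed by -0.22 ± 0.08 and did not pass. Of 42 assembly factors outside the Nduf family 5 rose and 3 fell, with Cmc2 at 0.49 ± 0.10, Uqcc2, a complex III factor, at 0.40 ± 0.06 and Sdhaf1, a complex II factor, at -0.40 ± 0.08. Foxred1, Cox15 and Pet100 also rose and Tmem186 and Cox16 also fell, named after their values were seen. Medians of these last 4 lists were 0.05, -0.05, 0.02 and 0.02, beside -0.0052 for all genes.

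Markers of cell division and of some other cell types differed between the groups. The counts stand beside 17.4% higher and 13.8% lower over all tested genes, and most lists hold few tested genes. All 14 cell cycle genes rose, with summed levels of 1095 to 1576 CPM in CD103Tg libraries and 656 to 702 CPM in B6 libraries. Of 4 B cell markers tested 3 were higher, among them Cd22 at 87.0 ± 10.9 CPM in CD103Tg and 15.5 ± 1.28 CPM in B6 (SD, n = 4 each), and the defining marker Ms4a1, under the filter, averaged 1.27 CPM in CD103Tg and 0.213 CPM in B6. NK cell markers (5 of 5 listed) summed to 333 to 441 CPM in CD103Tg and 165 to 192 CPM in B6, 4 of 4 tested higher and mostly Eomes, which CD8 T cells also express. The NK cell marker Ncr1, under the filter, was not higher, at 0.401 ± 0.193 CPM in CD103Tg and 0.506 ± 0.171 CPM in B6, with overlapping groups. Dendritic cell markers (6 of 7 listed, 3 of 4 tested higher) summed to 31.4 to 44.1 CPM in CD103Tg and 8.29 to 14.8 CPM in B6, and plasma cell markers (4 of 5 listed, 2 of 3 tested higher) to 99.5 to 144 CPM in CD103Tg and 63.8 to 84.0 CPM in B6. Most of the dendritic cell sum was Itgax, at 25.2 ± 5.49 CPM in CD103Tg and 6.55 ± 1.88 CPM in B6 (SD, n = 4 each). Xbp1 made up most of the plasma cell sum, at 99.6 ± 9.73 CPM in CD103Tg and 67.5 ± 8.34 CPM in B6. Jchain, the other plasma cell marker called higher, was uneven, at 6.93, 25.1, 3.26 and 2.57 CPM in CD103Tg and 0.319 ± 0.177 CPM in B6. Irf4, the plasma cell marker tested and not called, differed by -0.29 ± 0.27 on the log2 scale. Sums overlapped between the groups for monocyte and macrophage markers (4 of 7 listed, 13.0 to 91.3 CPM in CD103Tg and 3.99 to 62.2 CPM in B6), neutrophil markers (3 of 5, 0.134 to 6.32 CPM in CD103Tg and 0.0171 to 3.41 CPM in B6) and erythroid markers (3 of 3, 0.363 to 107.4 CPM in CD103Tg and 1.07 to 32.2 CPM in B6). The 1 listed gene of 3 CD4 T cell markers was at 0.0372 to 0.0766 CPM in CD103Tg and 0.448 to 0.786 CPM in B6, and the 1 listed gene of 6 stromal and endothelial markers (Pecam1, which fell) at 58.8 to 70.9 CPM in CD103Tg and 78.0 to 98.1 CPM in B6. Of 8 CD8 T cell markers Trac (-0.64 ± 0.07) and Cd8a (-0.24 ± 0.05) fell. The part of these markers in the levels of respiratory chain genes was not tested.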

How the data were processed

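Values were read from 1 table of all 8 libraries in which the authors deposited, per the labels, TMM-scaled CPM of filtered genes; it is treated as a signal, since the deposited values are whole reads or fractions of reads divided by a library factor, and how genes were filtered is not given. Per the submitters' processing notes, the tools were STAR 2.7.0f, RSEM, cutadapt 1.18 and bcl2fastq 2.17, on GRCm38 or mm10. RSEM estimates fractions of reads, and 63.0% to 65.2% of values came out as whole reads (within 0.005 reads), so no count test was the main test. Libraries were made with SMART-Seq v4 and Nextera XT, per the labels' protocols, without strand marking or molecular identifiers.

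Groups came from the sample titles. All 8 libraries entered 1 fit on log2(CPM + 1) with genotype alone as term: limma-trend (limma 3.58.1, R 4.3.3), two-sided, on the 11503 genes whose mean over the libraries reached 1 CPM, adjusted by Benjamini-Hochberg over all of them and called under 0.05. Fold changes are CD103Tg over B6 on the log2(CPM + 1) scale, which understates those of low genes. Lists, sums and ratios were described without a test. The fit was checked on simulated data. Near copies were found with blastn 2.17.0 against GENCODE M21 transcripts of the listed genes (at least 95% identity over 200 bases, or 100 for mt- genes). Copies outside the deposited list were not searched. CPM per kb used the length of the longest principal transcript. Named are all mt- genes, called nuclear members, the most abundant nuclear member per kb in each complex and the 3 genes with the smallest p in each further list. The members and lists were chosen with earlier results of these data known. Alternatives were other pseudocounts (0.1 and 5), filters (none, or a mean of 5 CPM), 4 other scalings, robust and weighted fits, voom on estimated reads, a replicate block and leaving out each library. Replicates differed by more than sampling noise. The summed level of the B cell markers is not reported here.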

Additional observations from a re-analysis of the deposited data

Results flagged for a closer look

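For all 106 members, 3 sums and the ratio of messengers over nuclear subunits, in each group, a library was looked for that stood apart from the other 3 by Dixon's criterion. It was met in 10 of 220 cases, and chance meets it in about 1 group in 20. In CD103Tg replicate 1, mt-Nd4l was at 0.888 CPM and listed at 0 in the other 3 CD103Tg libraries. In the same library Ndufa4 was at 188.7 CPM (171.7 to 173.9 CPM in the other 3), Cox6b1 at 166.3 CPM (149.3 to 151.2 CPM), Atp5l at 150.9 CPM (132.7 to 133.8 CPM), Ndufs4 at 76.2 CPM (61.9 to 64.2 CPM) and Ndufs6 at 75.8 CPM (67.1 to 68.2 CPM). In B6 replicate 3, Ndufa9 was at 180.2 CPM (168.9 to 170.5 CPM in the other 3), Atp5j2 at 123.7 CPM (101.5 to 103.8 CPM) and Ndufs5 at 58.3 CPM (47.7 to 48.7 CPM). In B6 replicate 1, Ndufs1 was at 173.5 CPM (157.9 to 159.7 CPM in the other B6 libraries).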

How the results depend on the processing

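Under 20 alternative settings no called member changed direction, while the log2 differences of 5 uncalled members near zero (Atp5b, Sdha, Uqcrb, Ndufaf8 and Atp5s) changed sign in some. The 14 mt- calls other than mt-Nd4l held in all 20, with 14 to 16 mt- genes called lower, and mt-Rnr1 passed in 5 settings. The log2 ratio of the messenger sums ranged from -0.84 to -0.71 and that of messengers over nuclear subunits from -0.91 to -0.85. The count of nuclear members called higher was 13 to 38 when single libraries were left out, the highest without B6 replicate 3 and the lowest without CD103Tg replicate 1, and 17 to 24 in the other settings. The count called lower was 0 to 2 when single libraries were left out and 2 with equal totals without the mt- rows. The cause was not tested. Same-numbered libraries of the 2 groups deviated together with correlations of 0.22, 0.35, -0.08 and 0.12, and differently numbered ones with -0.21 to 0.24. Whether the numbers pair the samples cannot be told from these values. With the replicate block 15 mt- genes were lower and 23 nuclear members higher. mt-Te and mt-Tq averaged below 1 CPM and were left out of the test by the filter.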
